A study of Homo sapiens with 16 samples.

Results

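The 38 genes described here carry the integrated stress response and the unfolded protein response, as listed response genes of the transcription factors ATF4, ATF6 and XBP1. They were found by symbol among 31496 genes of the count table, after transcripts had been summed to GENCODE 29 genes, and all 38 had enough counts to be tested among 19836 genes. The cells were HCT116, a human colon cancer line grown in culture, in which the long noncoding RNA NORAD was repressed by CRISPR interference, a dead Cas9 fused to a repressor and directed to a promoter. The labels give the genotype as wild type or knockdown and the time as 24 h, 48 h or 96 h, and they describe doxycycline as the inducer of the knockdown in 1 text shared by all 16 libraries, so it is not given whether the wild-type cells received the drug. Each genotype had 2 libraries at 24 h and 3 at both later times. Polyadenylated RNA was sequenced, and whether the knockdown line is a single clone is not given in the sources used here. The labels do not say that replicates were separate cultures, so p-values measure the spread between libraries, which may be technical.

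The integrated stress response starts with kinases that phosphorylate the translation factor eIF2 when amino acids run short, unfolded protein builds up in the endoplasmic reticulum (ER), or viral RNA or haem shortage is sensed. Most translation then slows, while that of ATF4 rises, and ATF4 with its partners turns on genes for amino-acid synthesis, one-carbon metabolism and redox balance, and also the feedback genes that end the response. The unfolded protein response adds further sensors in the ER membrane: PERK (gene EIF2AK3), which is itself an eIF2 kinase, IRE1 (gene ERN1), which splices XBP1 messenger RNA, and ATF6, which is cut and moves to the nucleus. ATF6 and spliced XBP1 turn on chaperones and the machinery of ER-associated degradation. Much of this control acts on protein, which was not measured here. In RNA from whole cultures, fewer cells of a kind and less RNA per cell cannot be told apart.

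NORAD itself, the targeted gene, was read first. At 24 h it stood at 179 and 201 CPM (counts relative to library size) in wild type against 229.6 and 188 where the label was knockdown, a log2 fold change of 0.14 ± 0.12 (SE), adjusted p = 0.523 by edgeR's quasi-likelihood test with Benjamini-Hochberg adjustment over all genes. The 48 h libraries had 155 to 162 CPM in wild type against 18.1 to 24.8 in knockdown, and those of 96 h 181 to 184 against 66.1 to 79.8. The groups did not overlap at 48 h or 96 h, and the adjusted p was 1.27e-13 and 5.25e-08. The 24 h comparison therefore sets libraries labelled knockdown against wild type at a time when NORAD RNA was not lower. The epithelial markers EPCAM (206 to 294 CPM), KRT8, KRT18 and KRT19 were high in every library. CDH1 lay at 64.6 to 158 CPM and CDX2 at 16.6 to 28.1. CEACAM5 did not pass 3.3 CPM, and VIL1 and CDX1 did not pass 0.678 CPM. Summed leukocyte markers lay between 8.67 and 51.3 CPM, nearly all of it CD68, and summed fibroblast and endothelial markers between 31.6 and 92.4 CPM, nearly all of it COL1A1.

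Members of the stress responses are known for short elements near their start sites, and these are shown first because the branches of the responses are known for different ones. Promoter windows around the start site, from RefSeq on GRCh38.p14, were matched for 35 of the 38 members and searched on both strands. The ER stress element (ERSE), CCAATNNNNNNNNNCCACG, stood in 5 of the 35 members and in 0.0769% of 35116 promoters, and ERSE-II, ATTGGNCCACG, in 3 of 35 and in 0.0541% of all. The core TGATGNAA of the C/EBP-ATF response element (CARE), which ATF4 and C/EBP proteins bind, stood in 4 of 35 and in 3.62% of all. The shorter TGACGTGG of the unfolded protein response element stood in 1 member, HYOU1, and in 0.729% of all, and overlapped its ERSE-II. The 5 bases CCACG alone, contained in both ERSE forms, stood in 24 of 35 and in 38.1% of all. Matched letters are a description, not a tested binding site. The 4 members with CARE letters were ASNS, ATF3, CHAC1 and HERPUD1, and HERPUD1 thus held both CARE and ERSE-II letters. Windows are shown for members that are described below, with all letters of a CARE match in capitals, only the fixed letters of ERSE and ERSE-II in capitals, and each strand that of the gene.
ASNS, CARE, chr7:97872458-97872487, minus strand: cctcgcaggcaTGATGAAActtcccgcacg
ATF3, CARE, chr1:212565205-212565234, plus strand: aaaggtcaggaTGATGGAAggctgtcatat
CHAC1, CARE on the opposite strand, chr15:40953251-40953280, plus strand: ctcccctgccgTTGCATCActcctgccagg
HERPUD1, CARE on the opposite strand, chr16:56931955-56931984, plus strand: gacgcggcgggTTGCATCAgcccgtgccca
HERPUD1, ERSE-II, chr16:56932016-56932044, plus strand: cggacgccgATTGGgCCACGttgggagag
SDF2L1, ERSE-II on the opposite strand, chr22:21642105-21642133, plus strand: cctcggaagCGTGGaCCAATcaaaaccct
HSPA5, ERSE, chr9:125241386-125241414, minus strand: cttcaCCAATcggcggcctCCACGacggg
CRELD2, ERSE on the opposite strand, chr22:49918549-49918577, plus strand: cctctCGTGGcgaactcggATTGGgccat
CALR, ERSE on the opposite strand, chr19:12938379-12938407, plus strand: ccacgCGTGGtcgaccatcATTGGtcggt
XBP1, ERSE, chr22:28800598-28800626, minus strand: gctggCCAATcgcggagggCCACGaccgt

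The members spanned a wide range of abundance. On the TPM scale (transcript abundance per length), averaged over all 16 libraries, the luminal chaperones CALR (693 TPM) and HSP90B1 (461 TPM) stood highest, then ATF4 (263 TPM) and HSPA5 (227 TPM). The sensors ATF6 (7.38 TPM) and ERN1 (4.85 TPM) were far lower, and ALDH1L2 (0.653 TPM) and VLDLR (0.134 TPM) lowest. DDIT4 covered the widest range, from 8.62 to 707 TPM. For CHAC1, PHGDH and HYOU1 the counts used here hold 0 of the 1, 2 and 1 transcripts that GENCODE 29 marks as principal, so their level rests on other transcripts (for HYOU1 39.3% on a nonsense-mediated decay form) and their rank is not read.

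Knockdown minus wild type at 24 h gave 18 members that fell and 1 that rose, where 12.4% of all tested genes fell and 5.14% rose. At 48 h 5 fell and 4 rose (18.5% and 14.8% of all genes), and at 96 h 8 fell and 2 rose (5.15% and 5.35%). The median log2 fold change of the 38 was -0.29 at 24 h, -0.05 at 48 h and 0.05 at 96 h, against -0.02, 0.06 and -0.01 over all genes. All knockdown libraries lay below all wild-type libraries for 23 members at 24 h, 7 at 48 h and 10 at 96 h, and above them for 4, 5 and 12, where 59.7%, 37.3% and 31.8% of all genes had groups that did not overlap. The effect differed between the 3 times for 11 members in an F test over all genes, a result found for 9.44% of all genes. In wild type alone, 12 members rose and 15 fell from 24 h to 48 h (22.5% and 22.1% of all genes), and 10 rose and 22 fell from 48 h to 96 h (23.7% and 22.7%). The knockdown comparison at each time and the wild-type comparisons share wild-type libraries, so their values are given side by side and not counted together.

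The split at 24 h and 48 h moved with the way libraries were scaled. Scaling to total counts put the median log2 fold change of all genes at 0.19 at 24 h and 0.20 at 48 h, and then 4 members rose and 12 fell at 24 h and 14 rose and 3 fell at 48 h. Under upper-quartile scaling 1 rose and 15 fell at 24 h and 13 rose and 3 fell at 48 h, while abundance-dependent scaling gave 3 and 11, and 10 and 4. The median of the 38 at 48 h turned to 0.08, 0.06 and 0.08 under these 3, where that of all genes was 0.20, 0.18 and 0.02. The median of the 38 thus stayed below that of all genes with total counts and the upper quartile. It lay above with abundance-dependent scaling. Over all genes the split at 24 h went from 1019 rising and 2465 falling to 2477 and 810 with total counts, 1730 and 1489 with the upper quartile and 1353 and 1395 with abundance-dependent scaling. At 48 h it went from 2928 and 3663 to 4731 and 2138, 4453 and 2476, and 2759 and 2779. At 96 h the 10 calls all held under the 4 other scalings.

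**Figure D1:**
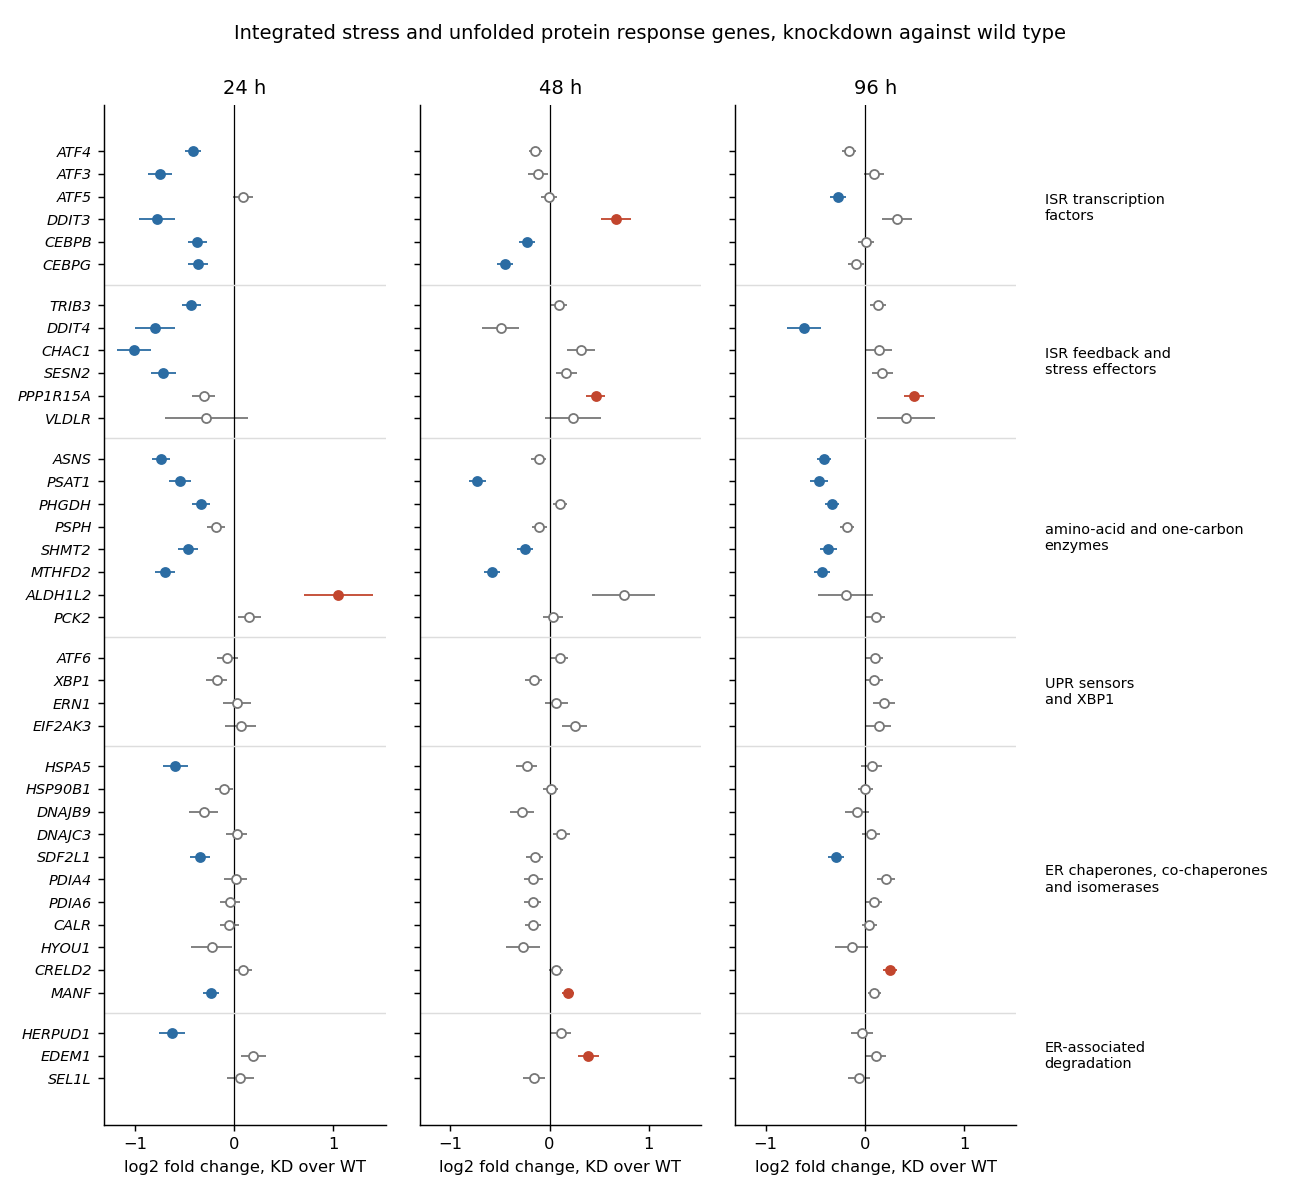
Log2 fold change of each of the 38 members, knockdown (KD) over wild type (WT), at 24 h, 48 h and 96 h, grouped by role. Points are edgeR estimates, bars 1 SE, filled red points rose and filled blue points fell at an adjusted p under 0.05, and open points did not pass: 19, 9 and 10 members passed.

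Enzymes that make serine, feed one-carbon units into the mitochondrial folate cycle or make asparagine were lower under the knockdown label. PSAT1, MTHFD2 and SHMT2 fell at 24 h, 48 h and 96 h, and ASNS and PHGDH fell at 24 h and 96 h. Of the 8 enzymes listed, 5 fell and 1 rose at 24 h, 3 fell at 48 h and 5 fell at 96 h. Among all tested genes 12.4%, 18.5% and 5.15% fell at these times in turn, while 5.14%, 14.8% and 5.35% rose. Whether the enzyme counts differ from these shares was not tested. The calls of PSAT1 and MTHFD2 at all 3 times held in each of the 26 other settings tried for them.

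PSAT1 (ENSG00000135069, chr9:78297143-78330093, plus strand, GRCh38) encodes phosphoserine aminotransferase, a step of serine synthesis from a glycolytic intermediate. It stood at 42.9 and 48.0 CPM in wild type at 24 h, against 30.9 and 31.4 under the knockdown label. At 48 h the wild-type libraries had 71.9, 70.0 and 72.5 CPM and the knockdown libraries 38.9, 40.4 and 50.3. At 96 h the values were 52.2, 55.0 and 53.7 against 43.0, 38.5 and 35.5. The groups did not overlap at any time, with knockdown lower, and knockdown replicate 3 lay highest of its group at 48 h. The log2 fold changes were -0.54 ± 0.11, -0.73 ± 0.09 and -0.46 ± 0.09 (SE; adjusted p by edgeR 0.00175, 3.74e-06 and 0.00159), and they did not differ between times by the F test (adjusted p = 0.336).

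MTHFD2 (ENSG00000065911, chr2:74198562-74217565, plus strand), the mitochondrial methylenetetrahydrofolate dehydrogenase, had 125 and 132 CPM in wild type and 79.3 and 78.6 in the libraries labelled knockdown at 24 h. At 48 h it had 159, 153 and 156 CPM against 95.1, 99.0 and 119.6, and at 96 h 121, 136 and 117 against 94.1, 94.3 and 89.0. The groups were apart at each time. Its log2 fold changes were -0.70 ± 0.10, -0.58 ± 0.08 and -0.44 ± 0.08 (adjusted p by edgeR 6.73e-05, 1.43e-05 and 0.000909). SHMT2, the mitochondrial enzyme that passes a carbon from serine to folate, stood at 196 and 188 CPM against 137 and 141 at 24 h and at 190.0, 185 and 176 against 139, 146 and 142 at 96 h. At 48 h 2 of its knockdown libraries had 193 and 197 CPM, but knockdown replicate 3 had 251, inside the wild-type range of 245 to 258. Its 24 h fall was lost without knockdown replicate 2 (adjusted p = 0.0552 by edgeR). Its log2 fold change of -0.24 at 48 h (adjusted p = 0.0263 by edgeR) lost the call under 3 scalings and when the 48 h libraries were fitted alone (0.13). It was -0.37 (adjusted p = 3.39e-05) without knockdown replicate 3 of 48 h.

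ASNS (ENSG00000070669, chr7:97852118-97872542, minus strand), asparagine synthetase, carries the CARE letters printed above. At 24 h it stood at 54.5 and 52.0 CPM in wild type and at 32.3 and 31.5 in the libraries labelled knockdown. At 48 h the groups overlapped, at 53.7, 51.7 and 57.0 against 47.8, 49.3 and 53.4 CPM, and at 96 h they were apart again, at 78.0, 84.7 and 77.1 against 61.8, 62.9 and 55.7. The log2 fold changes were -0.74, -0.11 and -0.41, and the difference between times passed (adjusted p = 0.00464 by edgeR). PHGDH, which opens the serine pathway, followed the same order of times: 82.7 and 76.2 against 63.3 and 62.9 CPM at 24 h, 69.1, 68.5 and 74.0 against 71.0, 73.8 and 82.6 at 48 h, and 86.9, 83.3 and 90.0 against 70.3, 71.9 and 64.3 at 96 h. Its log2 fold changes were -0.33, 0.10 and -0.33, the 24 h call was lost under 3 scalings (adjusted p = 0.34 with total counts), and the 96 h call held in all settings.

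The 3 other enzymes behaved differently. PSPH, the phosphatase of the same serine pathway, was lower in CPM in every knockdown library than in every wild-type library at each time, at 88.1%, 93.2% and 88.2% of the wild-type mean, yet did not pass the test (adjusted p 0.194, 0.302 and 0.13 by edgeR). At 48 h the nearest libraries had 25.95 CPM in wild type and 25.92 in knockdown. On the TPM scale its mean was higher under the knockdown label at 24 h (34.2 against 32.8) and lower at both later times. ALDH1L2, a mitochondrial folate dehydrogenase, rose at 24 h from 1.81 and 1.57 to 3.68 and 3.32 CPM (log2 fold change 1.05, adjusted p = 0.0425), a call lost without any 1 of the 4 libraries of 24 h. At that time 71.6% of its counts in wild type and 76.0% in the libraries labelled knockdown lay on transcripts annotated as retaining an intron. PCK2, the mitochondrial phosphoenolpyruvate carboxykinase, did not pass at any time (log2 fold changes 0.15, 0.04 and 0.11).

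**Figure D2:**
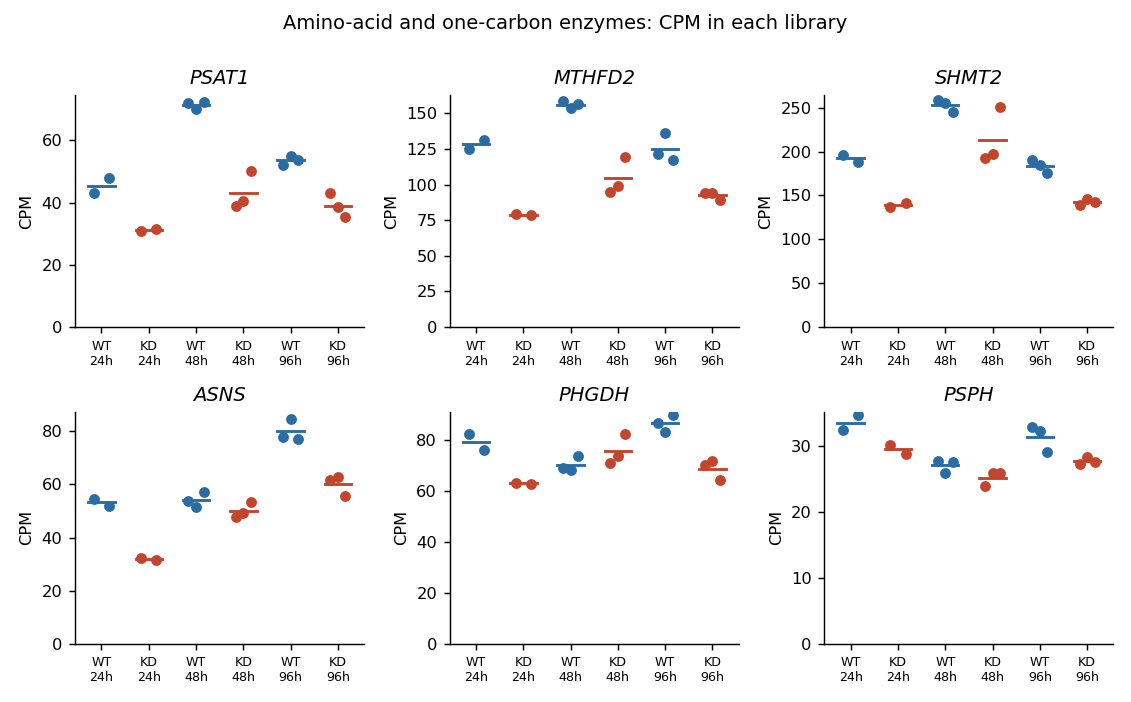
CPM of 6 amino-acid and one-carbon enzymes in each library (points) with group means (bars), wild type (WT) in blue and knockdown (KD) in red at 24 h, 48 h and 96 h. PSAT1 and MTHFD2 lie lower in every knockdown library at each time, from 30.9 to 50.3 CPM against 42.9 to 72.5 for PSAT1, while ASNS and PHGDH overlap between groups at 48 h.

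Most transcription factors of the integrated stress response were lower at 24 h in the libraries labelled knockdown, and fewer passed the test later. Of 6 factors, 5 fell at 24 h, 2 fell and 1 rose at 48 h, and 1 fell at 96 h. The falling share of all genes was 12.4%, then 18.5%, then 5.15%, with a rising share of 5.14%, 14.8% and 5.35%. Whether the factor counts differ from these shares was not tested. ATF4 itself, the central activator, stood at 395 and 378 CPM in wild type and 279.9 and 300.3 in the libraries labelled knockdown at 24 h. Its 48 h values were 383, 376 and 378 CPM against 315, 355 and 358, and at 96 h 315, 330.1 and 317 against 276, 293 and 292. Knockdown libraries lay below wild type at each time, but only the 24 h difference passed (log2 fold changes -0.41, -0.14 and -0.16; adjusted p by edgeR 0.00135, 0.103 and 0.149), and it was lost under abundance-dependent scaling (adjusted p = 0.16).

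DDIT3 (ENSG00000175197, chr12:57516588-57521737, minus strand), also called CHOP, a factor tied to cell death in prolonged stress, went both ways. At 24 h it was lower in the libraries labelled knockdown (23.8 and 19.8 CPM) than in wild type (45.2 and 29.3). At 48 h it was higher, at 19.4, 24.8 and 16.5 CPM against 13.0, 13.2 and 11.9, and at 96 h the values were 16.5, 18.2 and 15.6 against 13.2, 13.2 and 13.8. The log2 fold changes were -0.77 ± 0.18, 0.67 ± 0.15 and 0.32 ± 0.15 (adjusted p by edgeR 0.00672, 0.00281 and 0.219). The rise at 48 h and the difference between times (adjusted p = 0.00286) held in every setting. The fall at 24 h was lost when the 24 h libraries were fitted alone (adjusted p = 0.246 by edgeR). It also did not pass without wild-type replicate 1 or knockdown replicate 2 of 24 h (log2 fold changes -0.43 and -0.60).

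ATF3, a stress-induced repressor with CARE letters in its promoter window, fell at 24 h from 58.4 and 48.4 to 36.1 and 27.5 CPM (log2 fold change -0.75, adjusted p = 0.000246 by edgeR). Its groups overlapped at 48 h (27.0 to 30.5 against 23.9 to 28.5 CPM) and at 96 h (28.1 to 30.4 against 29.1 to 32.4). CEBPG, a partner of ATF4 in heterodimers, fell from 36.8 and 38.3 to 30.3 and 28.0 CPM at 24 h, a call lost without wild-type replicate 1, wild-type replicate 2 or knockdown replicate 2 and with total-count or abundance-dependent scaling, and from 55.0, 54.0 and 54.3 to 35.9, 39.1 and 44.8 at 48 h. Its 48 h fall of 0.45 on the log2 scale (adjusted p = 0.000243) held in every setting. CEBPB, its relative, fell by 0.37 at 24 h and by 0.23 at 48 h. The first call was lost without any 1 of the 4 libraries of 24 h and with total-count scaling (adjusted p = 0.216 by edgeR). The second was lost under 3 of 4 scalings and when the 48 h libraries were fitted alone (0.118). ATF5, induced alongside ATF4, fell at 96 h alone, from 29.6, 29.2 and 31.2 to 23.2, 26.1 and 25.3 CPM (adjusted p = 0.033), a call lost without any 1 of the 6 libraries of that time.

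Feedback and effector genes of the response were lower at 24 h and 1 of them was higher later. Of 6 listed, 4 fell at 24 h, 1 rose at 48 h, and 1 rose and 1 fell at 96 h. The shares of all genes that fell and rose were 12.4% and 5.14%, 18.5% and 14.8%, and 5.15% and 5.35% at these times. CHAC1 (ENSG00000128965, chr15:40952962-40956519, plus strand), which degrades glutathione, was at 8.66 and 6.43 CPM in wild type and 3.92 and 3.56 in the libraries labelled knockdown at 24 h, 49.6% of the wild-type mean. By 48 h the wild-type libraries had 3.0, 3.16 and 2.81 CPM against 3.49, 4.15 and 3.55, and at 96 h 4.01, 4.13 and 3.82 against 4.42, 4.40 and 4.36. The knockdown libraries were thus all lower at 24 h and all higher at the later times, and the difference between times passed in every setting (adjusted p = 0.0012 by edgeR), though the later differences did not pass on their own (adjusted p 0.0888 and 0.64).

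SESN2, a sestrin that restrains mTORC1 signalling, fell from 47.6 and 36.6 to 26.4 and 24.9 CPM at 24 h (log2 fold change -0.71, adjusted p = 0.000625 by edgeR) and lay at 21.8 to 24.7 against 22.5 to 30.3 CPM at 48 h and 26.1 to 29.4 against 29.9 to 33.2 at 96 h. TRIB3, a pseudokinase that holds back ATF4, fell from 96.8 and 90.3 to 72.2 and 66.4 CPM at 24 h (a call lost without knockdown replicate 2, adjusted p = 0.125, and with total-count scaling, where the log2 fold change went from -0.43 to -0.22, adjusted p = 0.0722) and was at 106.9% and 109.7% of the wild-type mean later, without passing. PPP1R15A (ENSG00000087074, chr19:48872392-48876057, plus strand), the stress-induced phosphatase subunit GADD34 that removes the phosphate from eIF2, was the member that rose at both later times. Its CPM was 53.5, 53.4 and 46.0 in wild type against 66.5, 70.4 and 74.5 in knockdown at 48 h, and 43.8, 37.0 and 40.9 against 54.1, 60.9 and 56.4 at 96 h. The knockdown libraries lay above wild type at both times, with log2 fold changes of 0.47 ± 0.10 and 0.49 ± 0.10 (adjusted p by edgeR 0.000988 and 0.00182) that held in every setting. At 24 h it had 122 and 93.4 CPM against 93.7 and 80.4, an overlap.

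DDIT4, an inhibitor of mTORC1 that answers energy and hypoxic stress, was lower in all knockdown libraries at all times. It had 888 and 716 CPM against 577 and 346 at the first time, 20.4, 19.3 and 18.8 against 12.6, 13.8 and 15.2 at 48 h, and 112, 98.4 and 84.1 against 57.4, 63.1 and 72.2 at 96 h. The log2 fold changes of -0.80, -0.49 and -0.61 had adjusted p of 0.0168, 0.058 and 0.0364 by edgeR. The 24 h call was lost when wild-type replicate 1 or knockdown replicate 2 was left out (adjusted p 0.132 and 0.133) and with abundance-dependent scaling (0.0565), and that of 96 h without any of 4 of the 6 libraries of its time. VLDLR, a lipoprotein receptor and PERK target, stayed between 0.415 and 2.19 CPM and did not pass at any time.

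**Figure D3:**
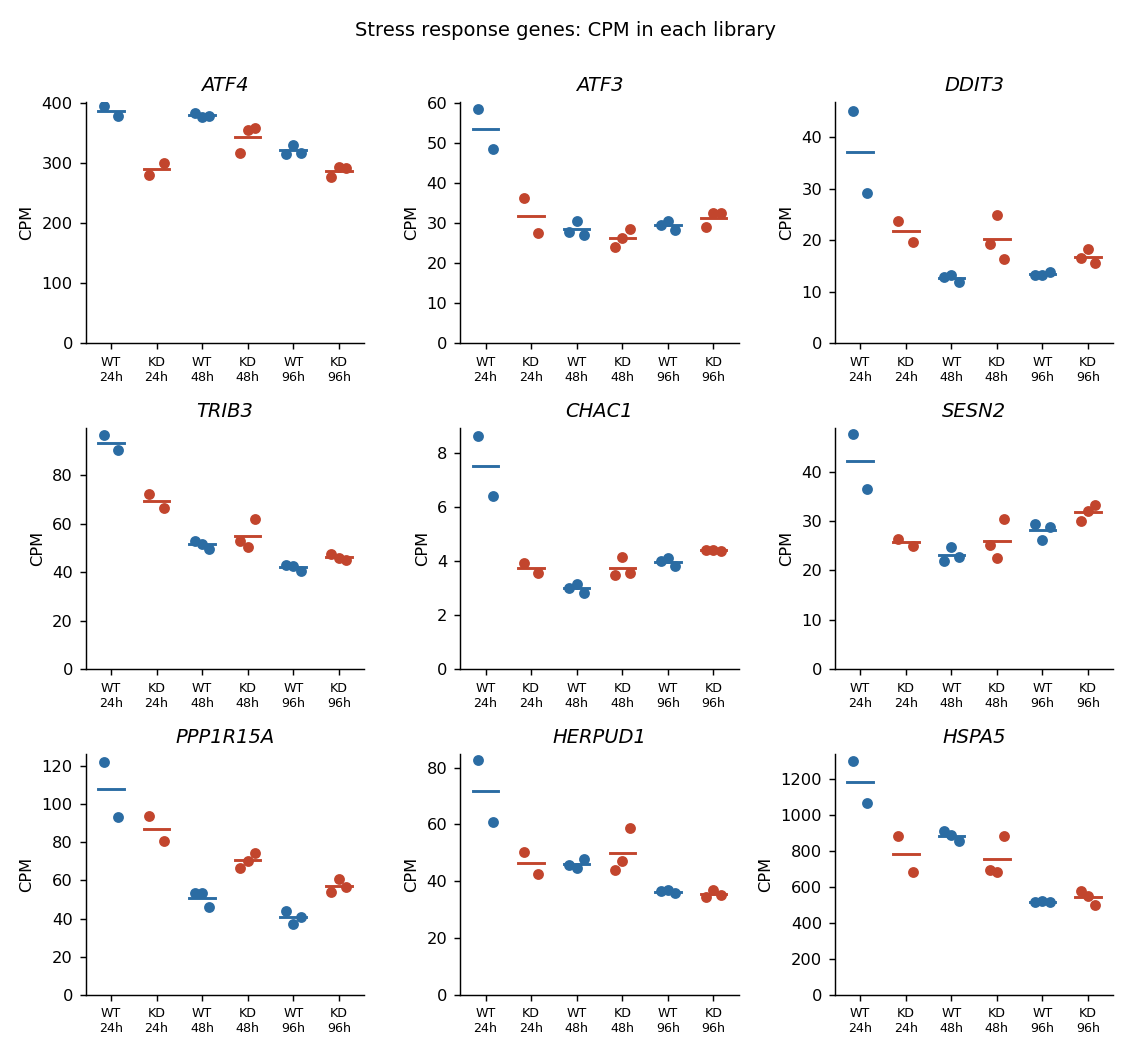
CPM of 9 stress response genes in each library (points) with group means (bars), wild type (WT) in blue and knockdown (KD) in red. CHAC1 and DDIT3 lie lower in the libraries labelled knockdown at 24 h and higher at 48 h and 96 h, and PPP1R15A lies higher at 48 h (66.5 to 74.5 against 46.0 to 53.5 CPM) and 96 h.

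Beside the 24 h result, the mitochondrial share of counts was 4.89% and 5.05% in wild type against 6.08% and 6.10% under the knockdown label, and the share on retained-intron transcripts 5.17% and 4.93% in wild type against 5.58% and 6.04%. Wild-type replicate 1 of 24 h had the highest value of all 16 libraries for, among others, ATF3, DDIT3, CHAC1, SESN2, TRIB3, PPP1R15A, HERPUD1, DDIT4 and HSPA5. Fewer members were called at 24 h without that library, or without knockdown replicate 2 of that time. Each of these refits left 1 library in a group, and the part of lower power over all genes was not tested. ATF3, CHAC1, SESN2, ASNS, PSAT1 and MTHFD2 were called at 24 h in every setting. At 48 h the mitochondrial share was 12.3% to 13.8% in knockdown and 10.4% to 11.2% in wild type, and the retained-intron share 5.73%, 5.29% and 4.18% in knockdown replicates 1, 2 and 3 against 4.05% to 4.26% in wild type. The part of these shares in the results was not tested.

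None of the sensors passed the test between knockdown and wild type. ATF6, ERN1, EIF2AK3 and XBP1 gave 0 calls of 4 at 24 h, 48 h and 96 h by edgeR, with 0 at an unadjusted p under 0.05 and 0 by DESeq2 each time. Their log2 fold changes lay between -0.18 (XBP1 at 24 h) and 0.25 (EIF2AK3 at 48 h). EIF2AK3 had 12.5 and 14.8 CPM against 15.6 and 13.1 at 24 h, 12.3, 12.2 and 12.7 against 14.5, 11.6 and 18.4 at 48 h, and 10.3, 11.2 and 10.7 against 12.7, 11.6 and 11.1 at 96 h, with overlap at each time. ERN1 had 22.8 and 22.05 CPM against 24.0 and 21.7, 13.96, 15.9 and 14.8 against 17.1, 11.8 and 17.9, and 22.1, 21.6 and 21.8 against 23.4, 24.2 and 27.1 in the same order, with the groups apart at 96 h alone. At 48 h 2 of the 4 rose with total-count scaling, 2 with the upper quartile and 1 with abundance-dependent scaling, and XBP1 was lower without knockdown replicate 3 (log2 fold change -0.30, adjusted p = 0.00107 by edgeR).

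IRE1 acts on XBP1 itself: the enzyme cuts a short intron out of the messenger in the cytoplasm and so shifts the reading frame. On the minus strand of chr22 the intron covers 28796122-28796147 (GRCh38, GENCODE 29), 26 bases inside the coding sequence, with 7 equal placements because of repeated letters at its ends. The stretch is shown in both forms, with the removed bases in capitals.
XBP1 unspliced, chr22:28796092-28796177, minus strand: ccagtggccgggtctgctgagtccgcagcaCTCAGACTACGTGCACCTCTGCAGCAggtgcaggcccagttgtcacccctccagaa
XBP1 spliced: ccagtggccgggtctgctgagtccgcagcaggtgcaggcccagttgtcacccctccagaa
The counted transcript without the intron held 7.96% ± 4.26 (SD, n = 2) of XBP1 counts in wild type and 6.36% ± 4.17 (n = 2) in the libraries labelled knockdown at 24 h. It held 6.0% ± 0.853 against 5.28% ± 1.57 at 48 h and 10.3% ± 1.99 against 7.78% ± 1.29 at 96 h (n = 3 each).

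The spliced share was lower on average at each time and overlapped between groups at each. At 96 h the wild-type libraries had 12.6%, 8.90% and 9.47% and the knockdown libraries 7.13%, 9.27% and 6.95%. At 48 h they had 5.53%, 6.98% and 5.49% against 3.60%, 5.53% and 6.70%, and at 24 h 10.97% and 4.95% against 3.41% and 9.31%. Over 48 h and 96 h together the difference was -1.63 percentage points (exact permutation test within times, two-sided, p = 0.09, where the smallest p possible was 0.005). Single times gave exact permutation p of 0.667, 0.6 and 0.2 and could not go below 0.333, 0.1 and 0.1. Counts on the spliced transcript were 45 to 284 per library, and the 95% Wilson interval of a single library, which covers counting error only, was for example 7.83% to 10.1% for wild-type replicate 2 at 96 h. Leaving out 1 of the 12 libraries at a time gave exact permutation p of 0.045 (without knockdown replicate 3 of 48 h, -1.99 points) to 0.215 (without knockdown replicate 1 of 48 h or replicate 3 of 96 h), and the difference nearest 0 was -1.06 points (exact permutation p = 0.155, without wild-type replicate 1 of 96 h). The spliced model is annotated as 1131 bases long and the unspliced as 1850, ending later at the 3' end, so coverage at that end also enters the division of reads between them. Another spliced model, of 1794 bases, is annotated but absent from the counts. Which model took its reads is not known, so the share does not measure all splicing or the activity of IRE1.

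**Figure D4:**
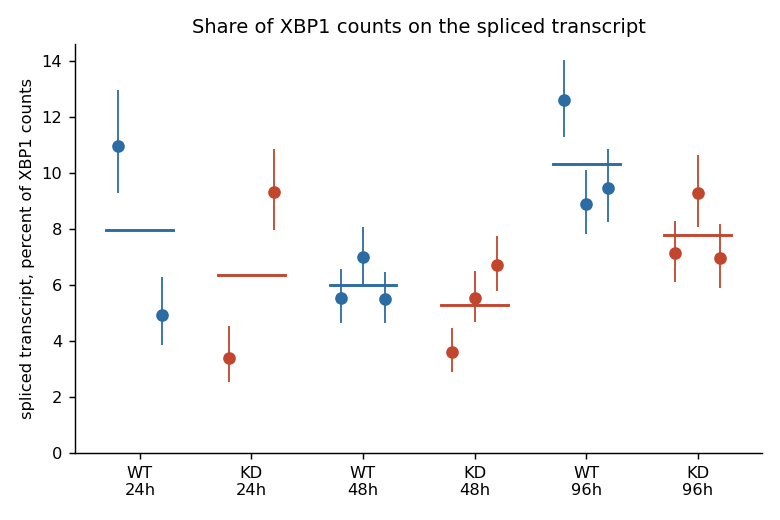
Percent of XBP1 counts on the counted transcript lacking the 26-base intron in each library (points) with 95% Wilson intervals for counting error, and group means (horizontal bars), wild type (WT) in blue and knockdown (KD) in red. Knockdown means are lower at each time, at 6.36%, 5.28% and 7.78%, but the libraries of the groups overlap.

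Most chaperones and folding enzymes of the ER did not pass the test between knockdown and wild type at each time. Among all genes tested, 12.4% fell and 5.14% rose at 24 h. These shares were 18.5% and 14.8% for 48 h, then 5.15% and 5.35% for 96 h. Relative to all genes, the folding genes passed less often at 48 h alone. Of 11, 3 fell at 24 h, 1 rose at 48 h, and 1 rose and 1 fell at 96 h, and the direction at 24 h depended on the scaling: 3 rose and 0 fell under abundance-dependent scaling, with CALR and HSP90B1 among those that rose. HSPA5 (ENSG00000044574, chr9:125234853-125241330, minus strand), the chaperone BiP that holds the sensors inactive, stood at 1301 and 1067 CPM in wild type and 885 and 685 in the libraries labelled knockdown at 24 h. The 48 h values were 909.6, 888 and 853 CPM against 692, 683 and 884, and at 96 h 517, 519 and 515 against 577, 551 and 499. The groups were apart at 24 h alone, where the log2 fold change was -0.59 ± 0.13 (adjusted p = 0.00284 by edgeR). That call was lost when the 24 h libraries were fitted alone (adjusted p = 0.139 by edgeR) and under abundance-dependent scaling (0.108). It also did not pass without wild-type replicate 1 or knockdown replicate 2 of 24 h (log2 fold changes -0.44 and -0.37). At 48 h knockdown replicates 1 and 2 were low and replicate 3 was inside the wild-type range, and without replicate 3 the fall of 0.36 passed (adjusted p = 0.00382).

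SDF2L1, a partner of BiP with ERSE-II letters, fell at 24 h (129 and 118 to 93.9 and 100.4 CPM) and at 96 h (52.9, 46.0 and 51.2 to 37.6, 43.8 and 41.3), with log2 fold changes of -0.34 and -0.29 (adjusted p by edgeR 0.0225 and 0.0295). The first call was lost under 3 scalings and the second without any of 4 of the 6 libraries of 96 h. At 48 h its groups overlapped, at 159, 160.4 and 144 against 127, 154 and 136 CPM. MANF, a secreted ER protein released on calcium loss, fell at 24 h (121 and 112 to 98.0 and 100.0 CPM) and rose at 48 h (160.4, 153 and 154 to 166, 190.4 and 175), by -0.24 and 0.19 on the log2 scale, near the threshold (adjusted p 0.0447 and 0.0329) and lost in many settings. CRELD2, a secreted ER stress protein, rose at 96 h from 42.4, 40.0 and 41.5 to 46.1, 51.7 and 49.9 CPM (adjusted p = 0.0289), a call lost without any of 5 of the 6 libraries of that time. The most abundant members, CALR and HSP90B1, had log2 fold changes between -0.17 and 0.05, and the isomerases PDIA4 and PDIA6 and the co-chaperones DNAJB9, DNAJC3 and HYOU1 did not pass at any time.

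In ER-associated degradation, which pulls unfolded protein back to the cytosol, 1 of 3 members fell at 24 h, 1 rose at 48 h and 0 passed at 96 h by edgeR (0 at an unadjusted p under 0.05 and 0 by DESeq2). HERPUD1, which organises the retrotranslocation complex, stood at 82.5 and 61.0 CPM against 50.4 and 42.4 at 24 h (log2 fold change -0.63, adjusted p = 0.00208 by edgeR). That call was lost when the 24 h libraries were fitted alone (adjusted p = 0.116 by edgeR). It also did not pass without wild-type replicate 1 or knockdown replicate 2 of 24 h (log2 fold changes -0.39 and -0.46). HERPUD1 overlapped later, at 45.8, 44.7 and 47.9 against 43.8, 47.2 and 58.6 CPM at 48 h and 36.6, 36.8 and 35.7 against 34.6, 37.0 and 35.2 at 96 h. EDEM1, a lectin that marks glycoproteins for disposal, rose at 48 h from 13.7, 16.5 and 16.5 to 24.2, 18.9 and 18.3 CPM (log2 fold change 0.39, adjusted p = 0.0071), a call lost when replicate 1 of wild type (0.0547) or of knockdown (0.0716) was left out. SEL1L, the adaptor of the HRD1 ligase, did not pass at any time.

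Knockdown replicate 3 at 48 h stood apart from its group for many members. Without it 14 members fell and 5 rose at 48 h in place of 5 and 4. Over all genes 4736 then fell and 4133 rose, in place of 3663 and 2928, so calls increased beyond the members too. Of the 11 folding genes 6 fell in place of 0 (HSPA5, DNAJB9, PDIA4, PDIA6, CALR and HYOU1). ATF4, XBP1 and SEL1L also fell then, and ALDH1L2 rose. CALR, for example, had 1236 and 1270.1 CPM in replicates 1 and 2 and 1511 in replicate 3, where wild type had 1544, 1532 and 1438. DDIT3, CEBPG, PPP1R15A, PSAT1 and MTHFD2 were called at 48 h in every setting, with and without this library.

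Other genes of these pathways, 75 tested of 78 listed, gave 15 that fell and 2 that rose at 24 h (12.4% and 5.14% of all genes). At 48 h 25 fell and 8 rose (18.5% and 14.8% of all genes). By 96 h 3 fell and 5 rose (5.15% and 5.35%). The same shares of all genes stand beside the counts of each list below. Among eIF2 and its regulators 7 of 12 fell at 24 h and 7 at 48 h, with 3 to 5 falling under the other scalings except that by DESeq2 size factors (7 and 7). EIF2S1, the subunit that is phosphorylated, fell by 0.50 at 24 h, 0.55 at 48 h and 0.26 at 96 h on the log2 scale (adjusted p by edgeR 0.000983, 1.55e-05 and 0.0361), the last lost when either replicate 1 of wild type or replicate 2 of knockdown at 24 h was dropped (0.051 and 0.056). EIF2B1, a subunit of the exchange factor that phosphorylated eIF2 blocks, fell by 0.48, 0.42 and 0.36 at these times and passed under each scaling. EIF2AK2, the RNA-sensing kinase PKR, rose by 0.56 at 24 h (adjusted p = 0.000886). Among 14 other ATF4 response genes tested, 6 fell at 24 h, 4 fell and 1 rose at 48 h, and 1, ATF2, fell at 96 h (by 0.31, adjusted p = 0.049). In wild type 7 of the 12 eIF2 genes rose from 24 h to 48 h (22.5% of all genes) and 8 fell from 48 h to 96 h (22.7%).

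Proline and aspartate enzymes were among those ATF4 genes. PYCR1 and ALDH18A1, steps of proline synthesis, fell by 0.72 and 0.62 at 48 h (adjusted p by edgeR 1.46e-06 and 0.000105), GOT1, the cytosolic aspartate aminotransferase, fell by 0.65 at 24 h, and the secreted hormones GDF15 and STC2 fell by 0.82 at 24 h and 0.80 at 48 h. Of 14 other folding genes 1 fell at 24 h, 8 fell and 1 rose at 48 h, and 2 rose at 96 h, but under abundance-dependent scaling 3 fell and 4 rose at 48 h. TXNDC5 fell by 0.52 and ERO1B rose by 0.63 at 48 h. OS9, which recognises glycans of misfolded protein, rose at each time, by 0.26, 0.24 and 0.40 (adjusted p 0.0407, 0.0125 and 0.000608), and under each scaling, but at 24 h not without wild-type replicate 1 (0.075). It is 1 of 15 other degradation genes tested, of which 1 rose at 24 h, 4 rose and 3 fell at 48 h and 2 rose at 96 h. For 0 of the 15 did the effect differ between times by edgeR (3 at an unadjusted p under 0.05 and 2 by DESeq2). Of 12 genes of ER entry and export 1 fell at 24 h, 3 fell at 48 h (3 rose and 0 fell with abundance-dependent scaling) and 1 rose at 96 h. Of 8 other signalling genes 2 rose at 48 h (ATF6B by 0.43 and CREB3L2 by 0.41) and 0 passed at 24 h and 96 h by edgeR (2 and 1 at an unadjusted p under 0.05, 1 and 0 by DESeq2).

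In wild type alone, most members changed between the labelled times. The mitochondrial share of counts in wild type was 4.89% and 5.05% at 24 h, 10.43% to 11.15% at 48 h and 15.48% to 16.64% at 96 h. Its part in these changes was not tested, and anything else that differed between the times cannot be told apart from time. From 24 h to 48 h all 6 feedback and effector genes changed, 5 falling and 1 rising, where 22.1% of all genes fell and 22.5% rose. DDIT4 (ENSG00000168209, chr10:72273920-72276036, plus strand) fell from 888 and 716 to 20.4, 19.3 and 18.8 CPM, a log2 fold change of -5.36 ± 0.21 (adjusted p = 3.62e-10 by edgeR), and then rose to 112, 98.4 and 84.1 at 96 h (2.33 ± 0.18, adjusted p = 2.29e-07). DDIT3 fell by 1.55, CHAC1 by 1.33, PPP1R15A by 1.08, ATF3 by 0.91, TRIB3 by 0.86 and SESN2 by 0.86 on the log2 scale from 24 h to 48 h. ATF4 did not pass over that interval (log2 fold change -0.03, adjusted p = 0.795), and 5 of the 6 transcription factors did.

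From 48 h to 96 h 10 of the 11 folding genes fell in wild type, and all 10 calls held in every setting tried. Over all genes 22.7% fell and 23.7% rose then, and 22.1% fell and 22.5% rose from 24 h to 48 h. SDF2L1 fell from 159, 160.4 and 144 to 52.9, 46.0 and 51.2 CPM (by 1.63 on the log2 scale, adjusted p = 7.01e-12 by edgeR). MANF fell by 1.32, CALR by 1.12, CRELD2 by 1.03, HSPA5 by 0.77, DNAJC3 by 0.67, PDIA4 by 0.65, HSP90B1 by 0.50, DNAJB9 by 0.48 and PDIA6 by 0.35. Before that, from 24 h to 48 h, 5 of the 11 rose (MANF, CRELD2, SDF2L1, CALR and DNAJC3) while HSPA5 fell by 0.42, a call lost without wild-type replicate 1 of 24 h (adjusted p = 0.169), as were the rises of SDF2L1 and CALR without wild-type replicate 2 (0.101 and 0.107). XBP1 messenger rose by 0.62 and then fell by 0.48, and ATF6 fell by 0.36 from 48 h to 96 h.

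The amino-acid enzymes split over the same interval. From 48 h to 96 h all 8 changed: ASNS (0.56), PCK2 (0.47), PHGDH (0.30), PSPH (0.22) and ALDH1L2 (1.56) rose, and PSAT1, SHMT2 and MTHFD2 fell by 0.41, 0.46 and 0.32 on the log2 scale. Among all genes 23.7% rose and 22.7% fell. The rise of PSPH was lost without wild-type replicate 1 or 2 of 96 h (adjusted p 0.0853 and 0.0598), and the fall of MTHFD2 under abundance-dependent scaling (0.0767). ASNS was thus highest in wild type at 96 h and PSAT1, SHMT2 and MTHFD2 at 48 h. Of the other ATF4 response genes 8 of 14 rose and 1 fell from 48 h to 96 h. Before that, 9 of 14 had fallen from 24 h to 48 h, where 22.1% of all genes fell.

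**Figure D5:**
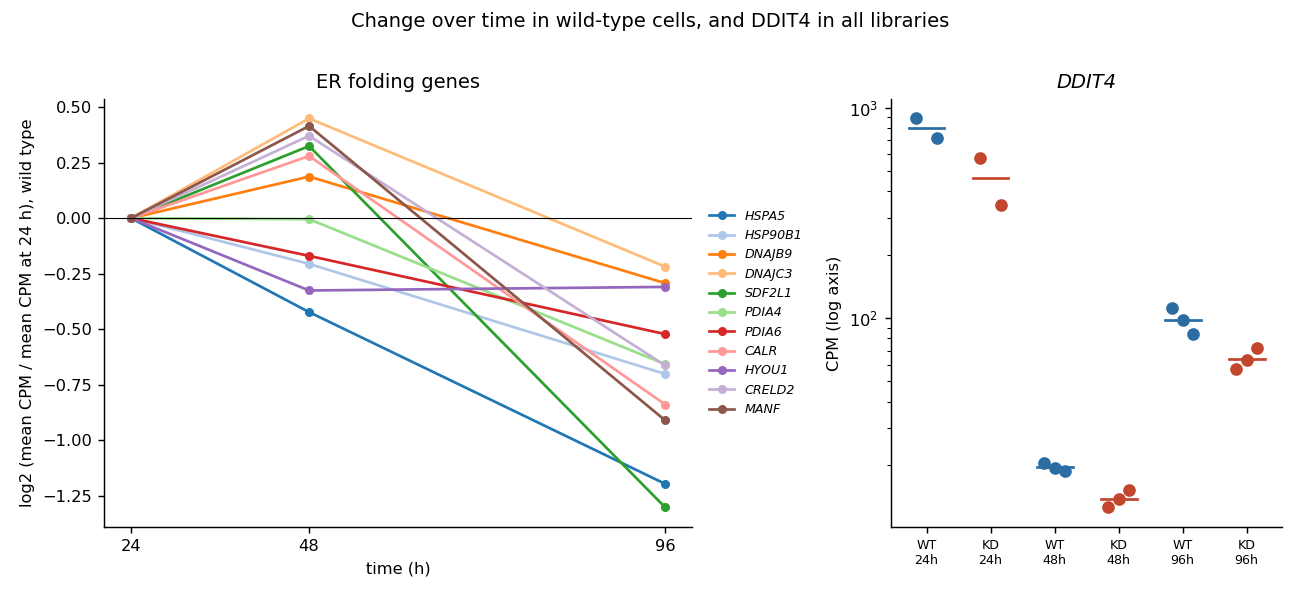
Left, mean CPM of the 11 ER folding genes in wild type relative to 24 h, on a log2 scale, at 24 h, 48 h and 96 h (n = 2, 3 and 3 libraries). Right, CPM of DDIT4 in each library on a log axis, wild type (WT) in blue and knockdown (KD) in red with group means as bars: from 888 and 716 at 24 h it dropped to 20.4 or less at 48 h in wild type.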

How the data were processed

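Polyadenylated RNA of 16 HCT116 libraries was counted by the authors, who deposited estimated counts (expected counts) per transcript. Per the submitters' processing notes, kallisto, DESeq2 and the build hg19 were used, with versions not given in the sources used here. Of 166096 transcripts, 156584 matched GENCODE 29 (GRCh38) by identifier and were summed to genes and rounded. The 9512 unmatched held 2.75% to 3.40% of counts and were left out. Totals were 28391784 to 51853876 per library. Shared reads were divided by a model, so near-identical genes are uncertain. edgeR 4.0.16 (R 4.3.3) fitted 6 group means by quasi-likelihood to 19836 genes kept by filterByExpr, with TMM scaling and 10 residual degrees of freedom, and p was adjusted by Benjamini-Hochberg (threshold 0.05). The script was tested on simulated data. CPM uses TMM library sizes, and TPM divides by annotated transcript length. Other settings included 4 scalings (one a loess of span 0.3), 2 filters, fitting only the times compared, DESeq2 1.42.0 and leaving out each library. Members and gene lists were chosen with earlier results of these data known. Members called at 2 or more knockdown times or differing between times were described in full, with the 2 of largest change per role, and up to 4 genes of lowest p per other list and time could be named. Replicate pairs differed beyond sampling noise.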

Additional observations from a re-analysis of the deposited data

Results flagged for a closer look

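For 11 members the difference between knockdown and wild type was not the same at 24 h, 48 h and 96 h, by edgeR's F test of the difference itself with Benjamini-Hochberg adjustment over all 19836 genes. The adjusted p was 0.0012 for CHAC1, 0.0022 for SESN2, 0.00286 for DDIT3, 0.0030 for PPP1R15A, 0.00449 for ATF3, 0.00464 for ASNS and 0.0074 for TRIB3. It was 0.0124 for PHGDH, 0.0174 for HERPUD1, 0.0264 for MANF and 0.0372 for HSPA5. For CHAC1, SESN2, DDIT3 and ASNS the call held in every setting tried. Without knockdown replicate 2 of 24 h it was lost for ATF3 (0.0808), PPP1R15A (0.062), TRIB3 (0.133) and HERPUD1 (0.178), and without wild-type replicate 1 of 24 h for TRIB3 (0.0614) and HERPUD1 (0.168). Without wild-type replicate 2 of 48 h it was lost for PHGDH (0.0596) and HERPUD1 (0.0695), and for PHGDH also with a replicate block (0.0535). For HSPA5 and MANF it was lost in many settings. All 11 were lower at 24 h in the libraries labelled knockdown, a time at which NORAD RNA was not lower, although PPP1R15A did not pass there.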

How the results depend on the processing

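Each comparison was refitted under 26 other settings, or 25 for the difference between times. The count of members called at 48 h was 9 and went to 17 with total-count scaling, 16 with upper-quartile scaling and 14 with abundance-dependent scaling. Leaving out 1 library at a time gave 7 (without knockdown replicate 2 of 24 h) to 19 members at 24 h, with 9 without wild-type replicate 1, 6 to 19 at 48 h (19 without knockdown replicate 3 of 48 h), 6 (without wild-type replicate 1 of 96 h) to 10 at 96 h, and 5 (without knockdown replicate 2 of 24 h) to 21 (without knockdown replicate 3 of 48 h) for the difference between times, with 7 without wild-type replicate 1 of 24 h or wild-type replicate 2 of 48 h. Each refit without a 24 h library left 1 library in a group, and the part of lower power over all genes was not tested. With 1 library left out at a time, the XBP1 spliced share differed by -2.00 to -1.06 percentage points. The part of sequencing depth in these calls was not tested. At 24 h HSP90B1 and CALR turned positive under abundance-dependent scaling (0.26 and 0.32 on the log2 scale, adjusted p 0.0494 and 0.0023 by edgeR). The splits of some gene groups also changed direction with scaling, as given with them above. The median of the 38 at 48 h changed sign, and the median of all genes moved too. The cause was not tested. No other single member reversed past the threshold. Same-numbered libraries did not deviate together (correlations -0.26 to 0.06), and the main fit assumed no pairing. Deviations from means of 2 or 3 libraries are not independent, so these correlations cannot exclude that same-numbered libraries were prepared together. With a replicate block 16, 7 and 7 members were called at 24 h, 48 h and 96 h and 9 differed between times, and the XBP1 difference of -1.63 points had an exact p of 0.156. For wild type over time the block within times could not be fitted, and a replicate block across times, chosen after seeing the data, left 27 and 32.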
